A study of Mus musculus with 34 samples.

Results

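The ATP-binding cassette (ABC) transporter genes of mouse kidney were examined in polycystic and normal kidneys at postnatal day 28 (P28). Members were every gene in the tables whose symbol names it as an ABC gene of subfamilies A to G, which gave 50 of 23509 genes. Of these, 44 had enough counts to be tested. The 3 groups were untreated C57BL6 wildtype mice (UNT, n = 12), Pkd2-KO mice on the same background given PBS (n = 11), and Pkd2-KO mice given RGLS4326 (n = 11). The sample labels spell the genotype of both dosed groups "Pdk2KO". Dosing was subcutaneous at P10, P11, P12 and P19, with RGLS4326 at 20 mg per kg body weight. RGLS4326 is a short, chemically modified oligonucleotide that pairs with the seed of the microRNA miR-17 and its family. Pkd2-KO here means floxed *Pkd2* deleted by a Cre under the *Pkhd1* promoter, which is active mainly in collecting ducts, so other kidney cells keep the gene. UNT mice lacked both the alleles and the injections, so genotype and injection cannot be told apart in PBS vs UNT. *Pkd2* itself ranged from 219.6 to 338 CPM (counts per 1000000 reads in genes, after scaling) in UNT, from 98.0 to 214.5 in PBS and from 170.0 to 237 in RGLS4326 kidneys, so that every PBS kidney lay below every UNT kidney.

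ABC proteins couple ATP hydrolysis at a pair of nucleotide-binding domains to movement of a substrate across a membrane. Subfamilies A and G include lipid and sterol exporters, B and C include drug and conjugate pumps, mitochondrial carriers and channel regulators, and D holds transporters of peroxisomes and lysosomes. E and F proteins lack membrane domains and act on ribosomes and in translation. In the kidney, exporters on the apical face of proximal tubule cells, such as *Abcc2*, *Abcc4* and *Abcg2*, send conjugated drugs, organic anions and urate into urine.

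RGLS4326 acts on the seed of miR-17, so the mature sequences (RefSeq) of 3 of its family members are shown with bases 2 to 8, the seed, in capitals.
mmu-miR-17-5p: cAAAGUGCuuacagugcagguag
mmu-miR-20a-5p: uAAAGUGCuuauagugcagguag
mmu-miR-93-5p: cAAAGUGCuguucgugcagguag
The seed was the same in all 3, and miR-20b, miR-106a and miR-106b held it as well. Among the tested ABC genes, 8 of 44 (18.2%) had a match to this seed in the longest 3′UTR annotated by GENCODE M21, beside 3003 of 14170 (21.2%) over all tested genes with an annotated 3′UTR. The matches searched were, on the transcribed strand only, GCACTTTA (8mer), GCACTTT not followed by A (7mer-m8) and CACTTTA not preceded by G (7mer-A1). An 8mer was found in 3 ABC genes (6.82%), beside 602 of all genes (4.25%). They are *Abca1*, *Abcd2* and *Abcg4*, all read from the minus strand of GRCm38, and their sites and the 7mer-m8 site of *Abcg2* on the plus strand are shown with the match in capitals.
*Abca1*, chr4:53030994-53031023: cctcattccaaGCACTTTAtgctgtctgta
*Abcd2*, chr15:91147075-91147104: gtatttaggcaGCACTTTAgccgacgctaa
*Abcg4*, chr9:44273898-44273927: acctggagaatGCACTTTAttctggggggt
*Abcg2*, chr6:58692424-58692452: attaaatatggGCACTTTgattaccatat
The other 4 matches were 7mer-A1 matches in *Abca9*, *Abcb4*, *Abcc1* and *Abcc5*. A match is a string of letters in an annotated transcript and was not tested as a binding site.

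Library size, counted as reads in genes, ran from 17603122 to 54981992, and CPM were scaled by trimmed mean of M values (TMM). All p-values below are Benjamini-Hochberg adjusted p-values of the two-sided edgeR quasi-likelihood test over 15644 tested genes, and a gene was called at an adjusted p under 0.05. Libraries differed in more than depth. The share of uniquely aligned reads that fell in no gene, here the unassigned share, was 12.9% to 14.9% in UNT libraries. It was 6.08% to 11.0% in PBS and 5.82% to 14.6% in RGLS4326 libraries. In this measure 4 of the 11 RGLS4326 libraries (replicates 5, 6, 7 and 11, at 13.9% to 14.6%) lay in the UNT range. No RGLS4326 library lay in the UNT range of the measures that follow. The 10 most counted genes held 13.57% to 16.81% of reads in genes in UNT libraries. They held 4.806% to 6.986% in PBS and 5.325% to 8.569% in RGLS4326 libraries. Reads aligned at several places were 22.84% to 25.65%, 14.81% to 19.38% and 14.75% to 19.07% of all reads in that order. TMM factors were 0.8017 to 0.9463, 1.053 to 1.109 and 1.026 to 1.143. PBS replicate 9 stood apart from the other PBS libraries in a principal component of the tested genes. It had the lowest level of the PBS group for 17 of the 44 ABC genes, a count not made over all genes. Library numbers in the table names fell into 3 blocks, each with mice of every group, and the labels do not say what the blocks were. The labels do not give litters or sexes.

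In UNT kidneys the largest ABC mRNA pool per exon length was that of *Abcd3*, a peroxisomal importer of branched-chain acyl-CoA, at 78.4 ± 13.2 CPM per kb (mean ± SD, n = 12). It was followed by *Abca3*, a lamellar body phospholipid transporter best known from lung, at 52.3 ± 6.77 CPM per kb and by *Abcg2*, the urate and drug exporter, at 50.5 ± 6.89 CPM per kb. The levels of *Abca3* and *Abcg2* did not differ beyond their SDs. *Abcc2*, an apical conjugate exporter, followed at 34.5 ± 4.51 CPM per kb. At the other end, 8 of the 44 tested genes lay under 0.3 CPM per kb in UNT kidneys, among them the sterol transporters *Abcg5*, *Abcg8* and *Abcg4* and the bile phospholipid transporter *Abcb4*.

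In PBS kidneys the order was different. *Abca3* was first at 34.6 ± 2.69 CPM per kb, followed by the translation ATPases *Abcf2* at 29.6 ± 3.5 and *Abcf1* at 28 ± 2.65, by *Abcd3* at 27.9 ± 6.16 and by *Abcc4*, an exporter of cyclic nucleotides and urate, at 27.2 ± 4.05 CPM per kb (n = 11). The last 4 of these lay within each other's SDs. *Abcg2* was seventh, *Abcc2* twelfth and *Abca1*, a cholesterol exporter that stood 21st in UNT kidneys, was 11th. Summed over mean levels per kb, the family stood at 485 CPM per kb in UNT, 333 in PBS and 344 in RGLS4326 kidneys. Subfamily D held 18.8% of that sum in UNT and 11.7% in PBS kidneys, and subfamily F 13.7% and 21.4%.

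**Figure D1:**
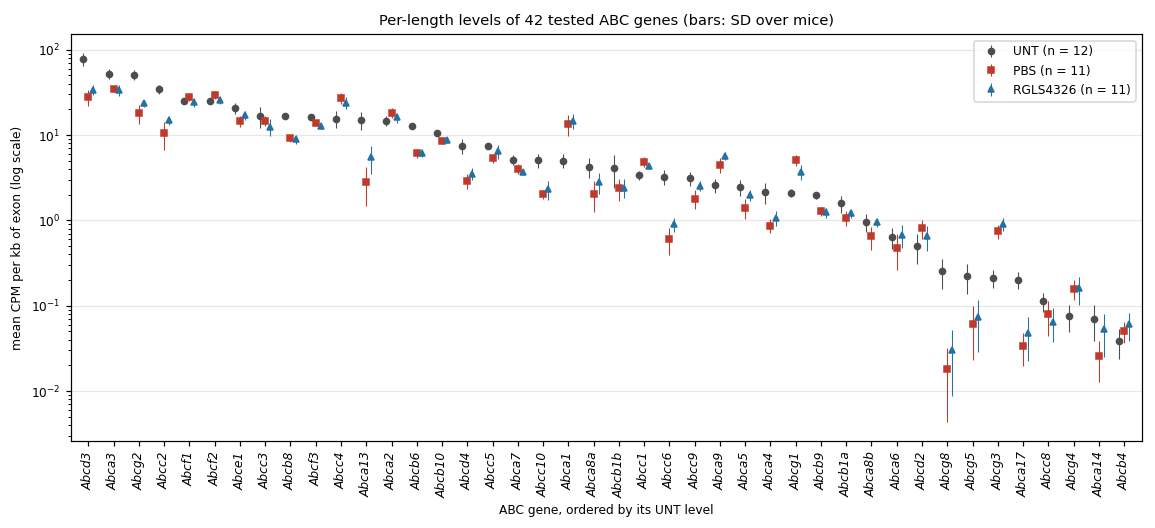
Mean level of 42 of the 44 tested ABC genes in CPM per kb of exon (log axis) in UNT, PBS and RGLS4326 kidneys, with bars for the SD over mice. Abcd3, Abca3, Abcg2 and Abcc2 led the UNT kidneys, and the PBS and RGLS4326 points of Abcc6, Abcg8 and Abca17 lay well below the UNT points.

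Of the 44 tested ABC genes, 41 (93.2%) were called in PBS vs UNT, 29 lower and 12 higher. Over all 15644 tested genes, 82.1% were called (43.1% higher and 39% lower), so most genes of either kind differed between these kidneys. The median log2 fold change was -0.56 over the ABC genes and 0.04 over all genes. The groups did not overlap for 16 ABC genes that were lower and 3 that were higher in PBS, beside 19.8% and 22.7% of all tested genes. In bulk kidney RNA, fewer cells of a type and less RNA per cell cannot be told apart. Lists of cell type markers moved in the same libraries. All 8 proximal tubule markers were lower, with a summed level of 13270 to 17550 CPM in UNT, 1170.0 to 4129 in PBS and 2531 to 4503 in RGLS4326 kidneys, while the 5 macrophage markers found in the tables, of 6 listed, were all higher, at 87.3 to 147, 511 to 1305 and 460.3 to 878 CPM. All 5 fibroblast and pericyte, all 3 tubular injury and all 4 collecting duct principal cell markers were higher as well. All 4 podocyte and all 3 distal convoluted tubule markers were lower. Of the 4 thick ascending limb and the 4 intercalated cell markers, 3 each were lower and 1 higher. Of the 5 endothelial markers 3 were lower and 2 higher. Their part in the ABC values was not tested. The unassigned share of UNT and PBS libraries did not overlap, so it cannot be told apart from group in this comparison. With it as a covariate 8 ABC genes were called higher and 26 lower (77.3%, beside 66.4% of all genes), and *Abca2*, *Abca14*, *Abca8b*, *Abcb1b*, *Abcc8* and *Abcd2* were among those no longer called.

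In RGLS4326 vs PBS, 17 of the 44 ABC genes (38.6%) were called, 13 higher and 4 lower, beside 33.8% of all tested genes (15.3% higher and 18.5% lower). The median log2 fold change was 0.21 over the ABC genes and 0.00 over all genes. The groups overlapped for every one of the 44 ABC genes, as for all but 10 of the 15644 tested genes (0.0639%). Without the 4 RGLS4326 libraries whose unassigned share lay in the UNT range, which left 7, 1 ABC gene was called higher (*Abcg2*) and 1 lower (*Abcg1*), beside 2.1% of all genes, with 13 higher and 2 lower at an unadjusted p under 0.05 (34.1% of the 44, beside 26.0% of all genes). The part of the smaller group in this drop was not tested. With that share as a covariate no ABC gene was called by edgeR, beside 0.927% of all genes, with 11 higher and 1 lower at an unadjusted p under 0.05 (27.3%, beside 21.5% of all genes). DESeq2 on all libraries, without the covariate, called 14 higher and 4 lower. Of the marker lists, 5 of 8 proximal tubule, 4 of 4 podocyte and 4 of 5 endothelial markers were called higher while 3 of 5 macrophage, 3 of 5 T and B cell and 2 of 4 collecting duct principal cell markers were called lower in RGLS4326 vs PBS, and their part in the ABC values was not tested. The unassigned shares of the groups overlapped, with 7 of the 11 RGLS4326 libraries below the UNT range.

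The comparisons share libraries: PBS mice enter both of the above, and RGLS4326 vs UNT reuses the other groups of each. It called 37 of 44 ABC genes (84.1%), 9 higher and 28 lower, beside 77.7% of all tested genes (40.8% higher and 36.9% lower). For 15 ABC genes the groups did not overlap, 4 higher and 11 lower, beside 36.7% of all tested genes. The median log2 fold change was -0.40 over the ABC genes and 0.02 over all genes.

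**Figure D2:**
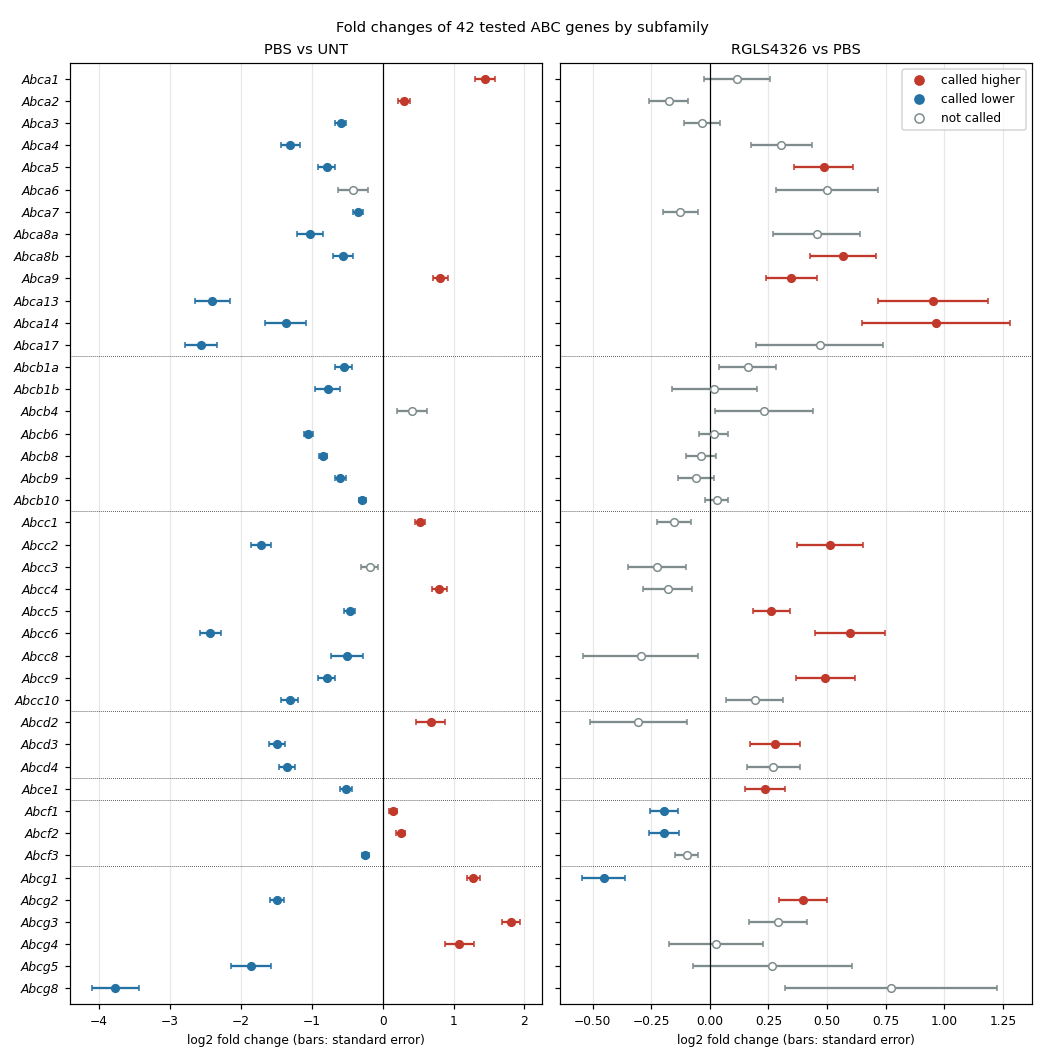
Log2 fold change with its standard error for 42 of the 44 tested ABC genes, grouped by subfamily, for PBS vs UNT (left) and RGLS4326 vs PBS (right, narrower axis). Filled points passed an adjusted p of 0.05: on the left 28 of those drawn lie below and 11 above 0, on the right 3 lie below and 12 above 0.

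Subfamily A had 16 members, of which 13 were tested. In PBS vs UNT 3 were called higher and 9 lower (92.3%, beside 82.1% of all tested genes). In RGLS4326 vs PBS 5 were called higher and none lower (38.5%, beside 33.8%). *Abca1*, which loads cholesterol and phospholipid onto apolipoprotein A-I, ranged from 37.01 to 69.2 CPM in UNT mice (median 51.01), from 55.2 to 194 in PBS-treated mice (median 152) and from 97.6 to 199 in RGLS4326-treated mice (median 152). All but 1 of the PBS mice and all RGLS4326 mice lay above the highest UNT mouse. The exception was PBS replicate 9 at 55.2 CPM, and the other 10 PBS mice held at least 97.7 CPM. The log2 fold change in PBS vs UNT was 1.44 ± 0.14 (SE, adjusted p = 1.3e-11) and stayed at 1.49 without PBS replicate 9. RGLS4326 mice overlapped the PBS mice other than replicate 9 over nearly the whole range, and the groups differed by 0.12 ± 0.141 (SE, adjusted p = 0.531).

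*Abca13*, the longest ABC protein of the family and of poorly known function, ranged from 152 to 393 CPM in UNT mice (median 307), from 10.1 to 101 in PBS-treated mice (median 47.7) and from 59.6 to 191 in RGLS4326-treated mice (median 111). Every UNT mouse lay above every PBS mouse, 6 of the 11 RGLS4326 mice lay above the highest PBS mouse, and 1 reached the UNT range. The log2 fold change was -2.40 ± 0.241 (SE, adjusted p = 2.83e-11) in PBS vs UNT and 0.95 ± 0.235 (SE, adjusted p = 0.0052) in RGLS4326 vs PBS. Without PBS replicate 9, the lowest mouse at 10.1 CPM, the latter was 0.85. Without the 4 RGLS4326 libraries it was 0.91 at an adjusted p of 0.053.

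*Abca17*, which has no annotated human protein-coding counterpart, ranged from 0.456 to 1.47 CPM in UNT mice (median 1.19), from 0.0563 to 0.335 in PBS-treated mice (median 0.1698) and from 0.105 to 0.534 in RGLS4326-treated mice (median 0.222). UNT and PBS mice did not overlap, although the counts behind these levels were only 2 to 14 per PBS library. The log2 fold change was -2.56 ± 0.229 (SE, adjusted p = 1.41e-12) in PBS vs UNT. *Abca14*, of unknown function, ranged from 0.178 to 0.794 CPM in UNT mice (median 0.392), from 0.0364 to 0.285 in PBS-treated mice (median 0.141) and from 0.105 to 0.606 in RGLS4326-treated mice (median 0.285). The groups overlapped, with 1 to 12 counts per PBS library. Its log2 fold change was -1.37 ± 0.293 (SE, adjusted p = 6.84e-05) in PBS vs UNT and 0.96 ± 0.316 (SE, adjusted p = 0.0203) in RGLS4326 vs PBS, and in the latter it was the only one of the 17 called ABC genes whose difference did not have the same sign in all 3 blocks of libraries.

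A cluster of neighbouring genes on chromosome 11 (*Abca5*, *Abca6*, *Abca8a*, *Abca8b* and *Abca9*, between positions 109932190 and 110337716 of GRCm38) did not move as one in PBS vs UNT. *Abca9*, of poorly known lipid-related function, ranged from 14.3 to 27.5 CPM in UNT mice (median 21.7), from 22.8 to 48.2 in PBS-treated mice (median 38.1) and from 37.6 to 54.5 in RGLS4326-treated mice (median 47.4). Of its 11 PBS mice 10 were above the highest UNT mouse, and all RGLS4326 mice were. It differed by 0.81 ± 0.105 (SE, adjusted p = 9.64e-09) in PBS vs UNT and by 0.35 ± 0.107 (SE, adjusted p = 0.0149) in RGLS4326 vs PBS. Its neighbours *Abca5* (-0.79), *Abca8a* (-1.03) and *Abca8b* (-0.56) were called lower in PBS vs UNT.

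*Abca5*, an endosomal and lysosomal member, ranged from 21.8 to 38.3 CPM in UNT mice (median 25.8), from 8.06 to 23.5 in PBS-treated mice (median 16.2) and from 17.2 to 29.3 in RGLS4326-treated mice (median 22.9). The 3 groups overlapped, with the RGLS4326 median between the others. It differed by 0.48 ± 0.126 (SE, adjusted p = 0.00642) in RGLS4326 vs PBS. *Abca8b*, linked to lipid and drug export, ranged from 4.93 to 9.96 CPM in UNT mice (median 7.2), from 2.27 to 6.92 in PBS-treated mice (median 4.51) and from 5.56 to 8.36 in RGLS4326-treated mice (median 7.22). Its RGLS4326 range lay inside the UNT range and overlapped the upper part of the PBS range. It differed by 0.57 ± 0.141 (SE, adjusted p = 0.00547) in RGLS4326 vs PBS. *Abca6* was the member of the cluster called in no comparison, at 3.44 ± 0.982, 2.57 ± 1.14 and 3.64 ± 1.102 CPM (mean ± SD) in UNT, PBS and RGLS4326 kidneys. Under relative log expression factors, with no filter on low counts and in DESeq2 it was called lower in PBS vs UNT, at -0.45, -0.46 and -0.45. *Abca8a* differed by 0.46 ± 0.187 (SE, adjusted p = 0.0566) in RGLS4326 vs PBS and was not called, but passed in DESeq2 and under upper-quartile factors, at 0.45 in both.

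Among the other A genes, *Abca3* differed by -0.59 ± 0.0755 (SE) in PBS vs UNT with no overlap, from 490.1 ± 63.5 in UNT to 325 ± 25.2 CPM in PBS kidneys (mean ± SD). It stood at 317 ± 48.3 CPM in RGLS4326 kidneys, within the SD of the PBS group. The retinoid flippase *Abca4* was called lower at -1.30 and the phospholipid exporter *Abca7* at -0.35, and *Abca2*, a lipid transporter of endosomes and lysosomes, was called higher at 0.30. None of these 4 was called in RGLS4326 vs PBS, although *Abca4* was with the library block as covariate, at 0.34, and *Abca3* was in block 2 alone, at -0.31, while its difference in block 1 was 0.15. *Abca12*, the skin ceramide transporter, *Abca15* and *Abca16* were not tested, with at most 1 count in any library.

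Of the 10 B genes, 8 were tested. In PBS vs UNT 7 were called lower and none higher (87.5%, beside 82.1% of all tested genes). *Abcb6*, a porphyrin transporter, ranged from 61.3 to 72.7 CPM in UNT mice (median 67.4), from 26.2 to 40.7 in PBS-treated mice (median 31.6) and from 27.1 to 38.5 in RGLS4326-treated mice (median 34.5). Every UNT mouse stood above every mouse of the other groups, and PBS and RGLS4326 mice covered the same range. Its log2 fold change was -1.05 ± 0.0618 (SE, adjusted p = 1.83e-17) in PBS vs UNT, the smallest adjusted p of the family, and 0.02 ± 0.0626 (SE, adjusted p = 0.853) in RGLS4326 vs PBS. Its counts are uncertain because 55.2% of its exon bases also lie in an annotated gene on the same strand, *Gm29253*.

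*Abcb8*, a mitochondrial inner membrane transporter, ranged from 63.3 to 85.1 CPM in UNT mice (median 79.2), from 38.8 to 52.6 in PBS-treated mice (median 42.4) and from 35.9 to 49.5 in RGLS4326-treated mice (median 42.04). UNT mice lay above all others, and the PBS and RGLS4326 groups differed by only -0.04 ± 0.0623 (SE, adjusted p = 0.646). Its log2 fold change in PBS vs UNT was -0.84 ± 0.0613 (SE, adjusted p = 6.36e-15). *Abcb10*, which acts in mitochondrial heme metabolism, differed by -0.29 ± 0.0486 (SE, adjusted p = 1.75e-06).

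The P-glycoprotein genes *Abcb1a* and *Abcb1b*, which encode broad drug exporters, were called lower in PBS vs UNT at -0.55 and -0.78. They share 12.5% and 8.13% of their 75-base windows with a family member, mostly each other, so their counts are uncertain. The lysosomal peptide transporter *Abcb9* was lower at -0.60 without overlap. *Abcb4*, the phosphatidylcholine exporter of bile, was at 0.363 ± 0.138, 0.479 ± 0.133 and 0.569 ± 0.206 CPM and was called in RGLS4326 vs UNT alone, at 0.64. The PBS vs UNT difference of 0.41 ± 0.21 (SE, adjusted p = 0.0684) passed with the library block as a covariate, at 0.46. *Abcb5* and the bile salt export pump *Abcb11* were not tested, with at most 9 and 6 counts in any library.

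Subfamily C had 10 members and 9 were tested. In PBS vs UNT 2 were called higher and 6 lower (88.9%, beside 82.1% of all tested genes). In RGLS4326 vs PBS 4 were called higher and none lower (44.4%, beside 33.8%). *Abcc2*, which exports conjugates into urine and bile, ranged from 240.2 to 376 CPM in UNT mice (median 292), from 50.3 to 153 in PBS-treated mice (median 78.2) and from 110.4 to 171 in RGLS4326-treated mice (median 126). UNT mice did not overlap either Pkd2-KO group. All 11 RGLS4326 mice stood above the PBS median, and 1 of them above the highest PBS mouse. The log2 fold change was -1.72 ± 0.14 (SE, adjusted p = 1.19e-13) in PBS vs UNT, and 0.51 ± 0.139 (SE, adjusted p = 0.00806) in RGLS4326 vs PBS.

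*Abcc6*, whose loss in people causes pseudoxanthoma elasticum, ranged from 13.1 to 25.6 CPM in UNT mice (median 18.5), from 1.89 to 5.36 in PBS-treated mice (median 3.33) and from 3.82 to 7.76 in RGLS4326-treated mice (median 5.02). The lowest UNT mouse was far above every Pkd2-KO mouse. It differed by -2.43 ± 0.149 (SE, adjusted p = 5.54e-17) in PBS vs UNT and by 0.60 ± 0.149 (SE, adjusted p = 0.00549) in RGLS4326 vs PBS. *Abcc10*, a lysosome-associated drug pump, ranged from 18.99 to 42.4 CPM in UNT mice (median 35.2), from 10.4 to 16.5 in PBS-treated mice (median 14.4) and from 11.1 to 22.8 in RGLS4326-treated mice (median 14.1). UNT and PBS mice did not overlap, and 3 RGLS4326 mice reached the UNT range, all of them among the 4 libraries with a high unassigned share. Those 4 held 17.5 to 22.8 CPM and the other 7 held 11.1 to 15.95 CPM. Its log2 fold change was -1.31 ± 0.119 (SE, adjusted p = 1.92e-12) in PBS vs UNT and 0.19 ± 0.12 (SE, adjusted p = 0.209) in RGLS4326 vs PBS.

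*Abcc5*, an exporter of cyclic nucleotides and organic anions, ranged from 69.8 to 87.3 CPM in UNT mice (median 80.9), from 43.4 to 69.3 in PBS-treated mice (median 58.3) and from 55.9 to 92.7 in RGLS4326-treated mice (median 64.8). PBS mice lay just below all UNT mice, and RGLS4326 mice overlapped both. It differed by -0.46 ± 0.0775 (SE, adjusted p = 1.57e-06) in PBS vs UNT and by 0.26 ± 0.079 (SE, adjusted p = 0.0139) in RGLS4326 vs PBS. The 4 RGLS4326 libraries with a high unassigned share held 71.8 to 92.7 CPM and the other 7 held 55.9 to 71.5 CPM. Without those 4 the log2 fold change was 0.09 (adjusted p = 0.395), and with the unassigned share as covariate the PBS vs UNT difference was 0.02 (adjusted p = 0.837).

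*Abcc8* and *Abcc9* encode sulfonylurea receptors, which regulate ATP-sensitive potassium channels. *Abcc9*, the receptor of vascular and muscle channels, ranged from 18.2 to 35.97 CPM in UNT mice (median 26.3), from 6.39 to 20.7 in PBS-treated mice (median 15.03) and from 16.9 to 25.8 in RGLS4326-treated mice (median 20.6). The groups overlapped, and all 11 RGLS4326 mice stood above the PBS median. It differed by -0.79 ± 0.123 (SE, adjusted p = 4.06e-07) in PBS vs UNT and by 0.49 ± 0.125 (SE, adjusted p = 0.00602) in RGLS4326 vs PBS. The pore gene *Kcnj8*, its partner in vascular smooth muscle, was -0.11 in PBS vs UNT (adjusted p = 0.224) and 0.24 in RGLS4326 vs PBS (adjusted p = 0.0329). *Abcc8*, the pancreatic receptor, had a mean of 0.916 ± 0.239 CPM in UNT and 0.645 ± 0.283 in PBS kidneys, at -0.50 ± 0.225 (SE, adjusted p = 0.0409). Its call was lost without PBS replicate 9, at -0.47 (adjusted p = 0.0568), and with a replicate block, at -0.50 (adjusted p = 0.0549). With the unassigned share as covariate the difference was -0.15 (adjusted p = 0.745). *Abcc8* was the 1 called gene whose PBS vs UNT difference changed sign between blocks.

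The C genes that rose in PBS kidneys were *Abcc4* and *Abcc1*. *Abcc4* was at 99.7 ± 21.9 CPM in UNT, 174 ± 25.9 in PBS and 153 ± 22.9 in RGLS4326 kidneys (mean ± SD), which differed by 0.80 ± 0.103 (SE, adjusted p = 8.83e-09) in PBS vs UNT. *Abcc1*, a basolateral exporter of leukotrienes and glutathione conjugates, was at 50.96 ± 6.72, 73.4 ± 10.2 and 66.05 ± 5.79 CPM, at 0.53 ± 0.072 (SE, adjusted p = 3.17e-08). Neither was called in RGLS4326 vs PBS, at -0.18 and -0.15. *Abcc3*, a basolateral conjugate exporter, was at 94.5 ± 25.2 and 83.05 ± 11.02 CPM with a difference of -0.18 ± 0.12 (SE, adjusted p = 0.151) in PBS vs UNT. It was lower in RGLS4326 vs UNT, at -0.41 ± 0.12 (SE, adjusted p = 0.0025), a call lost without the 4 RGLS4326 libraries with a high unassigned share, at -0.25 (adjusted p = 0.0808). With the unassigned share as covariate the PBS vs UNT difference was called, at -0.63. *Abcc12* was not tested, with at most 3 counts in any library. Of the 10 tested genes listed as drug and conjugate exporters, from the B, C and G subfamilies, 7 were called lower and 2 higher in PBS vs UNT (90%, beside 82.1% of all genes), and 4 higher and none lower in RGLS4326 vs PBS (40.0%, beside 33.8%).

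The D genes described here are *Abcd2*, *Abcd3* and *Abcd4*. *Abcd3* ranged from 355 to 665 CPM in UNT mice (median 536), from 138 to 266 in PBS-treated mice (median 178) and from 181 to 286 in RGLS4326-treated mice (median 229). UNT mice lay above every Pkd2-KO mouse, and the Pkd2-KO groups overlapped over most of their ranges. It differed by -1.49 ± 0.107 (SE, adjusted p = 3.66e-15) in PBS vs UNT and by 0.28 ± 0.106 (SE, adjusted p = 0.0416) in RGLS4326 vs PBS. The second call was lost without PBS replicate 9, at 0.268 (adjusted p = 0.0592), and with the library block as covariate, at 0.265 (adjusted p = 0.053). It was also lost with a replicate block, at 0.287 (adjusted p = 0.0678), and in a fit of only these groups, at 0.281 (adjusted p = 0.0501). *Abcd4*, which moves cobalamin out of lysosomes, ranged from 42.5 to 81.5 CPM in UNT mice (median 59.03), from 16.9 to 33.8 in PBS-treated mice (median 24.6) and from 20.96 to 37 in RGLS4326-treated mice (median 27.9). UNT mice did not overlap either Pkd2-KO group. It differed by -1.35 ± 0.112 (SE, adjusted p = 1.96e-13) in PBS vs UNT and by 0.27 ± 0.113 (SE, adjusted p = 0.0589) in RGLS4326 vs PBS, which passed with the library block as covariate, at 0.29.

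*Abcd2*, an importer of very long chain acyl-CoA into peroxisomes, was at 2.99 ± 1.14 and 4.81 ± 1.19 CPM in UNT and PBS kidneys, which differed by 0.68 ± 0.202 (SE, adjusted p = 0.00279). The *Abcd2* call was lost with the unassigned share as covariate, at 0.43 (adjusted p = 0.263), in block 3 alone (adjusted p = 0.0725) and in block 2 alone, where the difference was 0.04 (adjusted p = 0.859). Called lower among genes of peroxisome assembly and oxidation were *Pex3* at -0.65, *Acaa1a* at -0.42 and *Pex19*, the chaperone of peroxisomal membrane proteins, at -0.37.

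Of the 4 E and F genes, 2 were called higher and 2 lower in PBS vs UNT, and 1 higher and 2 lower in RGLS4326 vs PBS. *Abce1*, which splits ribosomes after termination, ranged from 102 to 173 CPM in UNT mice (median 122), from 73.1 to 109 in PBS-treated mice (median 82.8) and from 80.3 to 120.3 in RGLS4326-treated mice (median 103). The groups overlapped, with the RGLS4326 median between the others. It differed by -0.51 ± 0.082 (SE, adjusted p = 6.45e-07) in PBS vs UNT and by 0.23 ± 0.0835 (SE, adjusted p = 0.0303) in RGLS4326 vs PBS. *Abcf1*, which acts in translation initiation, ranged from 98.7 to 118 CPM in UNT mice (median 114), from 107 to 142 in PBS-treated mice (median 121) and from 89.4 to 132 in RGLS4326-treated mice (median 107). The groups overlapped, with the RGLS4326 median lowest. It differed by 0.15 ± 0.0582 (SE, adjusted p = 0.0185) in PBS vs UNT and by -0.19 ± 0.0596 (SE, adjusted p = 0.0151) in RGLS4326 vs PBS.

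The 4 RGLS4326 libraries with a high unassigned share held 89.4 to 98.1 CPM of *Abcf1*, below the 105.2 to 131.9 CPM of the other 7. Without them the RGLS4326 vs PBS difference was -0.09 (adjusted p = 0.3). The PBS vs UNT call of *Abcf1* was lost under relative log expression factors (adjusted p = 0.0602) and without PBS replicate 9 (adjusted p = 0.0818), and the difference turned to -0.19 (adjusted p = 0.00532) with the unassigned share as covariate. *Abcf2*, of the same subfamily, ranged from 54.9 to 71.3 CPM in UNT mice (median 64.1), from 63.3 to 93.98 in PBS-treated mice (median 73.1) and from 58.3 to 78.5 in RGLS4326-treated mice (median 62.6). The groups overlapped. It differed by 0.25 ± 0.0614 (SE, adjusted p = 0.000345) in PBS vs UNT and by -0.20 ± 0.0628 (SE, adjusted p = 0.0185) in RGLS4326 vs PBS, and the former turned to -0.06 (adjusted p = 0.51) with that covariate. *Abcf3* was lower in PBS vs UNT at -0.25.

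All 6 G genes were called in PBS vs UNT, 3 higher and 3 lower, beside 82.1% of all tested genes. In RGLS4326 vs PBS 1 was called higher and 1 lower (33.3%, beside 33.8%). *Abcg2* ranged from 364 to 529.5 CPM in UNT mice (median 382), from 98.8 to 195 in PBS-treated mice (median 144) and from 159.9 to 225 in RGLS4326-treated mice (median 188). UNT mice lay above every Pkd2-KO mouse. All 11 RGLS4326 mice stood above the PBS median, and 5 of them above the highest PBS mouse. It differed by -1.49 ± 0.103 (SE, adjusted p = 1.51e-15) in PBS vs UNT and by 0.40 ± 0.103 (SE, adjusted p = 0.00636) in RGLS4326 vs PBS. It stayed called without the 4 RGLS4326 libraries, at 0.46 (adjusted p = 0.0398), and was at 0.44 (adjusted p = 0.051) with the unassigned share as covariate.

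*Abcg1*, which exports sterol to high-density lipoprotein and is abundant in macrophages, ranged from 13.1 to 18.8 CPM in UNT mice (median 15.04), from 27.9 to 48.5 in PBS-treated mice (median 35.6) and from 19.5 to 34.7 in RGLS4326-treated mice (median 27.7). UNT mice lay below every other mouse, 6 of the 11 RGLS4326 mice lay below the lowest PBS mouse, and none was above the PBS median. It differed by 1.28 ± 0.0924 (SE, adjusted p = 5.16e-15) in PBS vs UNT and by -0.45 ± 0.0933 (SE, adjusted p = 0.00197) in RGLS4326 vs PBS, the smallest adjusted p of the family in that comparison. Without the 4 RGLS4326 libraries it stood at -0.35 (adjusted p = 0.0453). All 5 macrophage markers were called higher in PBS vs UNT and 3 were called lower in RGLS4326 vs PBS, with *Cd68* at 3.83 and -0.80, while *Mrc1* stood at 3.50 and -0.02 (adjusted p = 0.929 for the last). In those 4 libraries the summed level of the 5 macrophage markers was 460.3 to 646 CPM, and in the other 7 it was 659 to 878 CPM. The part of macrophages in the *Abcg1* values was not tested.

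*Abcg3*, a rodent-specific relative of *Abcg2*, ranged from 0.454 to 1.005 CPM in UNT mice (median 0.767), from 1.92 to 3.45 in PBS-treated mice (median 2.48) and from 2.43 to 4.34 in RGLS4326-treated mice (median 3.29). No UNT mouse reached the range of the other groups, at 13 to 46 counts per UNT and 49 to 150 per PBS library. It rose by 1.81 ± 0.13 (SE, adjusted p = 4.18e-15) in PBS vs UNT, the largest rise among the tested ABC genes, and differed by 0.29 ± 0.123 (SE, adjusted p = 0.064) in RGLS4326 vs PBS. The latter was called without PBS replicate 9, at 0.34, and with the library block as covariate, at 0.30. *Abcg4*, a sterol exporter best known from brain, was at 0.395 ± 0.137 CPM in UNT and 0.822 ± 0.209 in PBS kidneys, at 1.08 ± 0.208 (SE, adjusted p = 1.52e-05).

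*Abcg5* and *Abcg8* form the dimer that exports plant sterols and cholesterol in liver and intestine. *Abcg8* fell from 0.959 ± 0.371 CPM in UNT to 0.0678 ± 0.0518 in PBS kidneys with no overlap, at -3.77 ± 0.336 (SE, adjusted p = 1.47e-12), and was at 0.114 ± 0.0813 CPM in RGLS4326 kidneys. It was the largest fall of the family and rests on few reads, 12 to 60 counts per UNT and 0 to 6 per PBS library. *Abcg5* was at 0.608 ± 0.236 and 0.167 ± 0.104 CPM, at -1.86 ± 0.284 (SE, adjusted p = 2.97e-07). These neighbours overlap by 82 exon bases on opposite strands. Neither was called in RGLS4326 vs PBS.

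**Figure D3:**
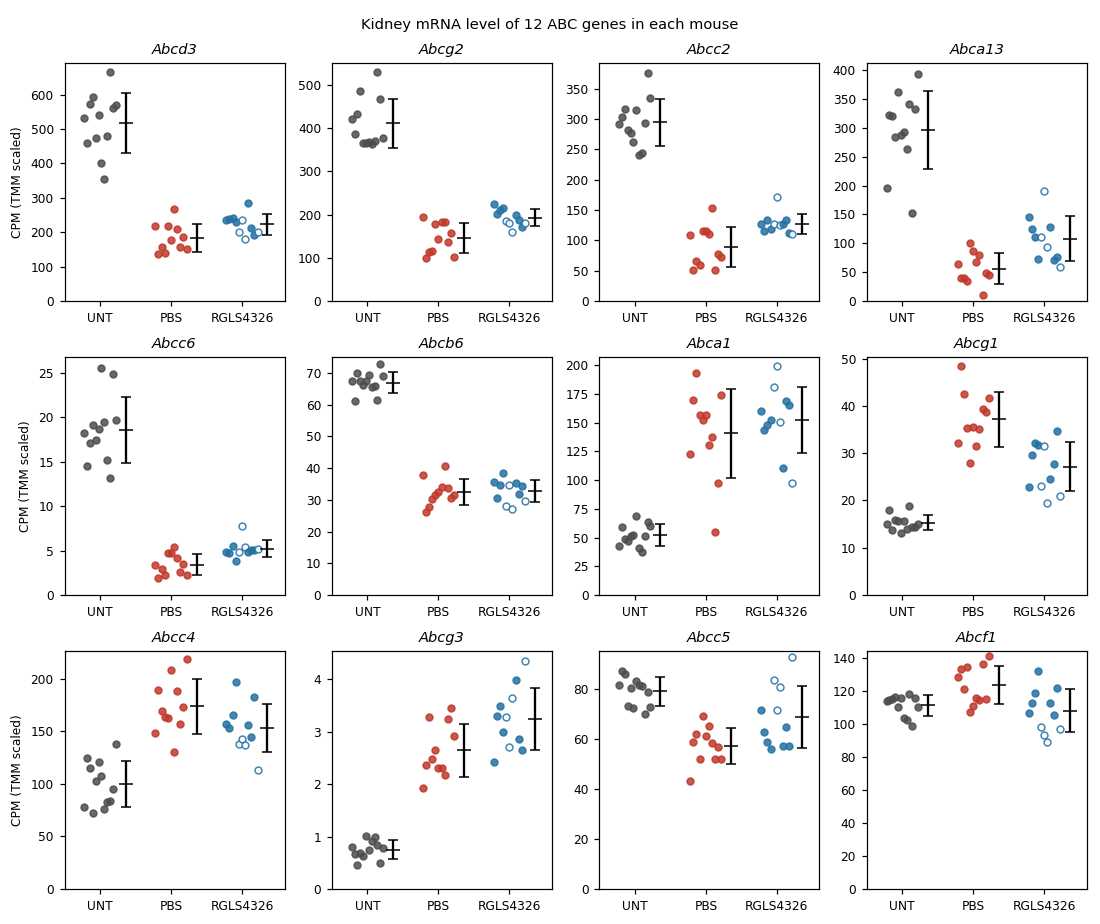
CPM of 12 ABC genes in every mouse, with each panel starting at 0 and the mean and SD drawn beside each group of UNT, PBS and RGLS4326 mice. Open circles are the 4 RGLS4326 libraries whose unassigned share lay in the UNT range: they held the 4 highest RGLS4326 values of Abcc5 and the 4 lowest of Abcf1.

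Among the 17 genes called in RGLS4326 vs PBS, values with and without these libraries differed by gene. For *Abca13*, *Abca8b*, *Abcc9*, *Abca9* and *Abcd3* the log2 fold change was 0.91, 0.54, 0.50, 0.36 and 0.35 without the 4 RGLS4326 libraries, close to the values with them, and the adjusted p rose to between 0.053 and 0.0888 with 7 RGLS4326 mice left. For *Abcc5*, *Abcf1*, *Abcf2* and *Abce1* it shrank to 0.09, -0.09, -0.12 and 0.15. Of the 17 differences, 16 had the same sign within each of the 3 blocks of libraries. In block 2 alone 8 ABC genes were called higher and 3 lower in RGLS4326 vs PBS (25.0% of the 44, beside 25.5% of all genes tested there), and all 3 RGLS4326 libraries of that block (replicates 5, 6 and 7) are among the 4 with a high unassigned share. In blocks 1 and 3 edgeR called none, with 10 higher and 4 lower, and 7 higher and 1 lower, at an unadjusted p under 0.05. These were 31.8% and 18.2% of the 44, beside 21.7% and 18% of all genes tested in those blocks.

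**Figure D4:**
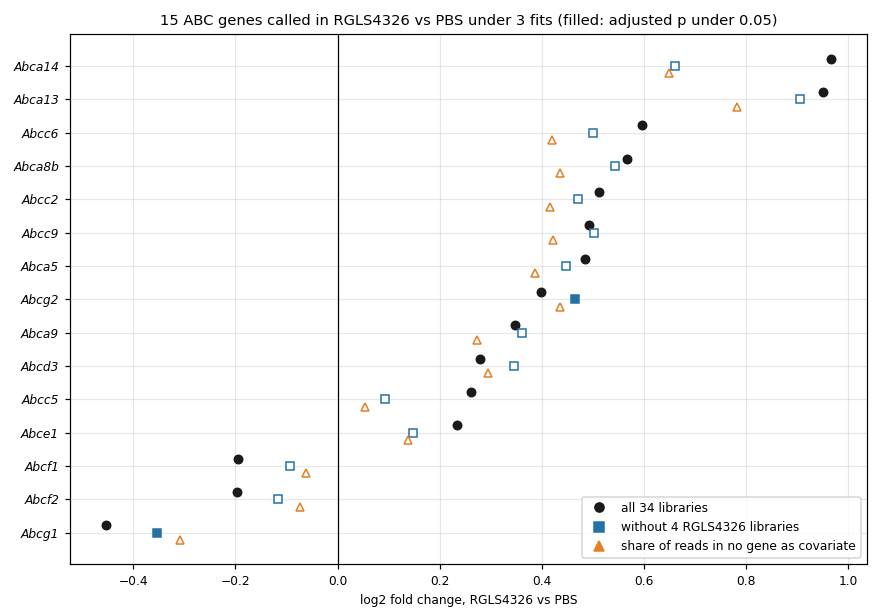
Log2 fold change in RGLS4326 vs PBS of 15 of the 17 ABC genes called with all libraries (circles), without 4 RGLS4326 libraries (squares) and with the unassigned share as covariate (triangles), filled where the adjusted p was under 0.05. All 15 kept their sign, Abcg2 and Abcg1 stayed filled without the 4 libraries, and no triangle is filled.

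Of the 8 ABC genes with a seed match for miR-17, 3 were called higher and none lower in RGLS4326 vs PBS, and of the 36 without a match 10 were called higher and 4 lower. Over all tested genes with an annotated 3′UTR, 26.0% of the 3003 with a match were called higher and 9.86% lower, beside 12.1% and 21.6% of the 11167 without one. With 8 ABC genes a difference of this kind was not tested. The 3 genes with the 8mers shown above were not called, at 0.12 ± 0.141 (SE, adjusted p = 0.531) for *Abca1*, -0.30 ± 0.207 (SE, adjusted p = 0.244) for *Abcd2* and 0.03 ± 0.201 (SE, adjusted p = 0.926) for *Abcg4*. The called genes with a shorter match were *Abcg2*, *Abca9* and *Abcc5*.

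ABC genes under other symbols and genes of the same pathways were read from lists. Over all tested genes 82.1% were called in PBS vs UNT and 33.8% in RGLS4326 vs PBS. The chloride channel *Cftr*, which belongs to the C subfamily by sequence, and the peptide transporters *Tap1* and *Tap2* of antigen presentation, from subfamily B, were all called higher in PBS vs UNT, at 0.69, 1.73 and 1.08. None was called in RGLS4326 vs PBS, at 0.30, -0.34 and -0.21 with adjusted p-values of 0.175, 0.0507 and 0.101.

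Of 15 nuclear receptors and other regulators of ABC genes, 6 were called higher and 8 lower in PBS vs UNT. These were 93.3% of the list, beside 82.1% of all tested genes. The lower included *Hnf4a*, a factor of proximal tubule identity, at -1.49, the bile acid receptor *Nr1h4* at -1.67, the xenobiotic receptors *Nr1i2* and *Nr1i3* at -1.36 and -2.89, and the fatty acid receptor *Ppara* at -1.62. *Nr1h3*, the sterol-sensing liver X receptor alpha that activates *Abca1* and *Abcg1*, was lower at -0.98 in the kidneys where both genes were higher, while its relative *Nr1h2* was higher at 0.32. *Nfe2l2*, the oxidative stress factor, and the aryl hydrocarbon receptor *Ahr* were higher at 0.69 and 0.99. In RGLS4326 vs PBS 1 of the 15 was called higher, *Ppara* at 0.61, and 3 lower, *Nr1h2* at -0.25, *Rxrb* at -0.20 and *Srebf1* at -0.33. These were 26.7% of the 15, beside 33.8% of all tested genes.

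Among 8 sterol partners of the lipid exporters, 5 were called higher and 2 lower in PBS vs UNT. These were 87.5% of the list, beside 82.1% of all tested genes. *Apoe*, a lipid acceptor made by macrophages and other cells, was at 1.56, the lysosomal cholesterol carriers *Npc1* and *Npc2* were at 0.84 and 0.90, and *Apoa1* and *Lcat*, which form high-density lipoprotein, were lower at -1.56 and -1.42. In RGLS4326 vs PBS *Apoe* and *Npc2* were called lower, at -0.47 and -0.31 (25.0% of the 8, beside 33.8% of all tested genes). The 7 tested ABC genes listed for cholesterol and phospholipid export, *Abca1*, *Abca2*, *Abcg1*, *Abcg4*, *Abca3*, *Abca4* and *Abca7*, split in PBS vs UNT, with the first 4 called higher and the last 3 lower.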

How the data were processed

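RNA-seq of 34 mouse kidneys was examined. The authors extracted RNA with Qiagen RNeasy kits, made TruSeq stranded mRNA libraries and sequenced paired 75-base reads on a NextSeq 500. Per the study's methods and the submitters' processing notes, reads were trimmed with Trim Galore, aligned to GRCm38 (mm10) with STAR and counted with HTSeq 0.6.1, and FastQC 0.11.2, SAMtools 1.1 and Picard 1.119 are named. The strand setting and annotation used for counting are not given in the sources used here. The deposited values were raw counts of uniquely aligned reads per gene symbol. Rows that name no gene were left out of library sizes. They held 5.82% to 14.9% of the reads assigned to a gene, to several or to none as reads in no gene, and 0.393% to 0.642% as ambiguous reads.

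Genes were tested with edgeR 4.0.16 in R 4.3.3 (quasi-likelihood, TMM factors, filterByExpr by group, 1 fit over all 34 libraries with no covariate), with Benjamini-Hochberg adjustment over 15644 tested genes. Standard errors were the absolute log2 fold change divided by the square root of F. Gene coordinates, exon lengths and 3′UTRs came from GENCODE M21 on GRCm38. The counting annotation may differ. No 2 libraries held identical counts. The p-values weigh group differences against the spread between these mice, taken as independent. The labels do not name litters or sexes, so this could not be checked.

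Members were the symbols Abca to Abcg followed by a number, and the tested ones are described, except that some genes are not reported here, although they are in the counts. Lowest, median and highest levels are given for genes with the 10 smallest adjusted p-values in a contrast and for all called in RGLS4326 vs PBS. Members and lists were chosen with earlier results of these data known. Alternatives were other scaling factors, no filter, DESeq2 1.42.0, fits by or with the library block, a replicate block, 2 groups alone, a minimum fold and the unassigned share (reads in no gene) as covariate. The PBS vs UNT fit was also run on simulated counts in which few genes changed and no library effect was set. In these data 82.1% of genes were called and libraries differed in the unassigned share, so that run cannot bear out the calls.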

Additional observations from a re-analysis of the deposited data

How the results depend on the processing

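Fits without PBS replicate 9 and without the 4 RGLS4326 libraries were chosen after seeing the data. Groups held 11 or 12 mice, so replicates were not left out in turn. In PBS vs UNT the ABC counts stayed within 1.5 times of 12 higher and 29 lower under every alternative run, and were lowest, at 8 higher, in block 2 alone, in block 3 alone and with the unassigned share (uniquely aligned reads in no gene) as covariate. In RGLS4326 vs PBS the counts moved. ABC genes called higher, 13 in the reported fit, were 0 in block 1 alone, 8 in block 2 alone, 0 in block 3 alone, 0 with that covariate, 1 without the 4 RGLS4326 libraries and 5 at an absolute log2 fold change over 0.5. ABC genes called lower, 4 in the reported fit, were 0 in block 1 and block 3 alone, 0 with the covariate, 1 without the 4 libraries and 0 at that fold. Over all genes 5280 were called, and 54 in block 1, 4065 in block 2, 0 in block 3, 145 with the covariate, 332 without the 4 libraries and 1258 at that fold (7972 of 12157 in RGLS4326 vs UNT). Blocks alone hold 3 or 4 mice a group.

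Of differences called in the reported fit or under the alternative, those whose direction turned were, with the covariate, Abcc5 at 0.0177, Abcf1 at -0.19 and Abcf2 at -0.0585 in PBS vs UNT and Abcc5 at 0.071 and Abcf2 at -0.13 in RGLS4326 vs UNT, in block 1 alone Abcc8 at 0.12 in PBS vs UNT, in block 3 alone Abca14 at -0.12 in RGLS4326 vs PBS, and in block 2 alone Abca5 at 0.0703 and Abce1 at 0.0175 in RGLS4326 vs UNT. The cause was not tested. With the replicate number as a replicate block, 13 ABC genes were higher and 28 lower in PBS vs UNT, 12 and 4 in RGLS4326 vs PBS and 9 and 26 in RGLS4326 vs UNT. The numbers were not taken to pair the mice, since the labels tie them to no litter or batch. Same-numbered mice deviated together (correlation over 0.1) in 1, 5 and 3 of 11 pairs in the 3 comparisons. Differently numbered mice were not compared, so these counts cannot show whether the numbers pair the mice. Low counts in PBS libraries limit Abca14, Abca17, Abcg5 and Abcg8.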
